A study of Rattus norvegicus with 8 samples.

Results

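Calcineurin and the factors it acts on were read from the 9 rows of the expression table that carry the symbols Ppp3ca, Ppp3cb, Ppp3r1, Nfatc1, Nfatc2, Nfatc3, Nfatc4, Rcan1 and Rcan2. They are 9 of the 21017 rows in the table, chosen by symbol and by function, and each symbol matched a single row. All 9 reached the mean of 1 FPKM that was required for testing. FPKM relates the fragments of a gene to its length in kilobases and to the size of the library. Rcan1 transcripts were higher and Nfatc4 transcripts were lower in siECHS1 than in siNC, and the other 7 did not pass the test.

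The cells were neonatal rat cardiomyocytes, heart muscle cells cultured from newborn rats of the strain labelled SD. They were transfected for 48 h with siECHS1, a small interfering RNA against Echs1, or with siNC, the control small interfering RNA, and RNA was then sequenced in 4 libraries of each group. Echs1 encodes a mitochondrial enoyl-CoA hydratase of fatty acid and valine breakdown. Both groups were transfected and neither carried another treatment in the labels, which give no small interfering RNA sequence, no dose and no cell purity. The labels do not say whether the 4 libraries of a group came from separate cultures or animals, so p-values reflect the scatter among these libraries alone, and that scatter may be technical.

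Calcineurin is a calcium- and calmodulin-dependent protein phosphatase built of a catalytic A subunit and a regulatory B subunit. When cytosolic calcium rises it removes phosphates from the NFAT transcription factors, which then enter the nucleus, and kinases such as GSK3 and the DYRK family return them to the cytosol. The RCAN proteins bind calcineurin and can inhibit it, and in mouse and human cells RCAN1 is itself an NFAT target through its internal promoter, so that its transcript is widely used as a readout of calcineurin activity. In the heart the pathway is known for its part in pathological growth of the muscle cells. Its activity is set by calcium and by protein phosphorylation, and neither was measured here.

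The promoters of the 2 RCAN genes are shown because they encode related inhibitors of which Rcan1 was called and Rcan2 was not. RefSeq gives the window around the annotated start of Rcan1 at chr11:45118187-45118486 (build GRCr8, minus strand) and that of Rcan2 at chr9:24672140-24672439 (GRCr8, minus strand), each 250 bases before the start and 50 after it. Capitals mark every match, on either strand, to the NFAT core GGAAA, the AP-1 letters TGACTCA or the CRE letters TGACGTCA. The last 2 motifs were chosen after the sequence had been seen.
Rcan1: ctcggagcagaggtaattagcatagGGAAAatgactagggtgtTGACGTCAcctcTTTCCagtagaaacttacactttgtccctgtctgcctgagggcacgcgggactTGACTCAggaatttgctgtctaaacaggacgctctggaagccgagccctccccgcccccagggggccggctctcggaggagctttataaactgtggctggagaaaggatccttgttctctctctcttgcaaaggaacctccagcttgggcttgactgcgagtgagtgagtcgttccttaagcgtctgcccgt
Rcan2: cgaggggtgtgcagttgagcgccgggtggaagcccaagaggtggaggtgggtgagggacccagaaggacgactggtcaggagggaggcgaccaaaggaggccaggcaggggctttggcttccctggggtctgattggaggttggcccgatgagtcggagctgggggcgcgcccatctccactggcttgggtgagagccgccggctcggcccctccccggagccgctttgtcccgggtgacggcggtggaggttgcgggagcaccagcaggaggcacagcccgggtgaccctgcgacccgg
The Rcan1 window held GGAAA at positions -225 and -195, TGACGTCA at -207 and TGACTCA at -142, where -250 is the first base printed and a position is that of the first base of a match. No match overlapped another, and in the Rcan2 window none of the 3 motifs was found. Of all 33469 RefSeq rat promoters of this length, 28.5% held GGAAA at least 2 times and 62.7% at least once, 4.63% held TGACTCA and 1.83% held TGACGTCA. Promoters were listed for 6 of the 9 genes. Ppp3cb had GGAAA once, at -72, and Ppp3r1 once, at -250, while the windows of Ppp3ca and Nfatc2 had none of the 3 motifs. A match describes letters and not a bound site. The table gives 1 start for each gene, and whether that start is the one used in these cells was not measured.

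Depth, as recovered from the FPKM values, ran from 16953309 to 18237111 reads a library. Of these reads 99.9% lay in listed genes, so the totals may leave out reads not assigned to a gene. The first principal component, with 36.9% of the variance, placed the 4 libraries of one group apart from the 4 of the other. Echs1 itself was at 1.33 ± 0.244 FPKM (SD, n = 4) in siNC and 0.516 ± 0.112 in siECHS1, and LOC100911186, a row with the same protein match, at 6.61 ± 0.782 and 3.38 ± 0.385. For both rows the groups did not overlap. The Echs1 row rested on 138 siNC and 55 siECHS1 reads. By position it overlaps the row of Zfp710, and the row of LOC100911186 overlaps that of Paox, so reads may be shared. The log2 change of LOC100911186 was -0.80 (SE 0.09, limma adjusted p = 0.000272). Echs1 fell by 0.62 on the log2 scale (SE 0.09, limma without the filter on low values, adjusted p = 0.00374). This size depends on the pseudocount: over the alternatives the log2 change of Echs1 ran from -1.22, at a pseudocount of 0.1, to -0.55, and the ratio of mean FPKM was 0.388. In the comparison over all genes, limma on log2(FPKM + 1) with Benjamini-Hochberg adjustment called 2655 of 12616 tested genes at an adjusted p of 0.05, which is 21.0%. Of the tested genes 8.83% were called higher and 12.2% lower, and in 25.2% the siNC and siECHS1 libraries did not overlap.

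Of the 9 genes, 2 were called (22.2%), against 21.0% of all tested genes, so the share of called genes was near that of the background. The called genes were Rcan1, which was higher (8.83% of all tested genes), and Nfatc4, which was lower (12.2%). The same 2 were the genes whose groups did not overlap, against 25.2% of all tested genes. The median change of the 9 was -0.07 on the log2 scale, beside -0.01 over all tested genes, and the median size of a change was 0.0969 beside 0.102. A negative change was found for 7 of the 9, beside 6812 of the 12616 tested genes.

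**Figure D1:**
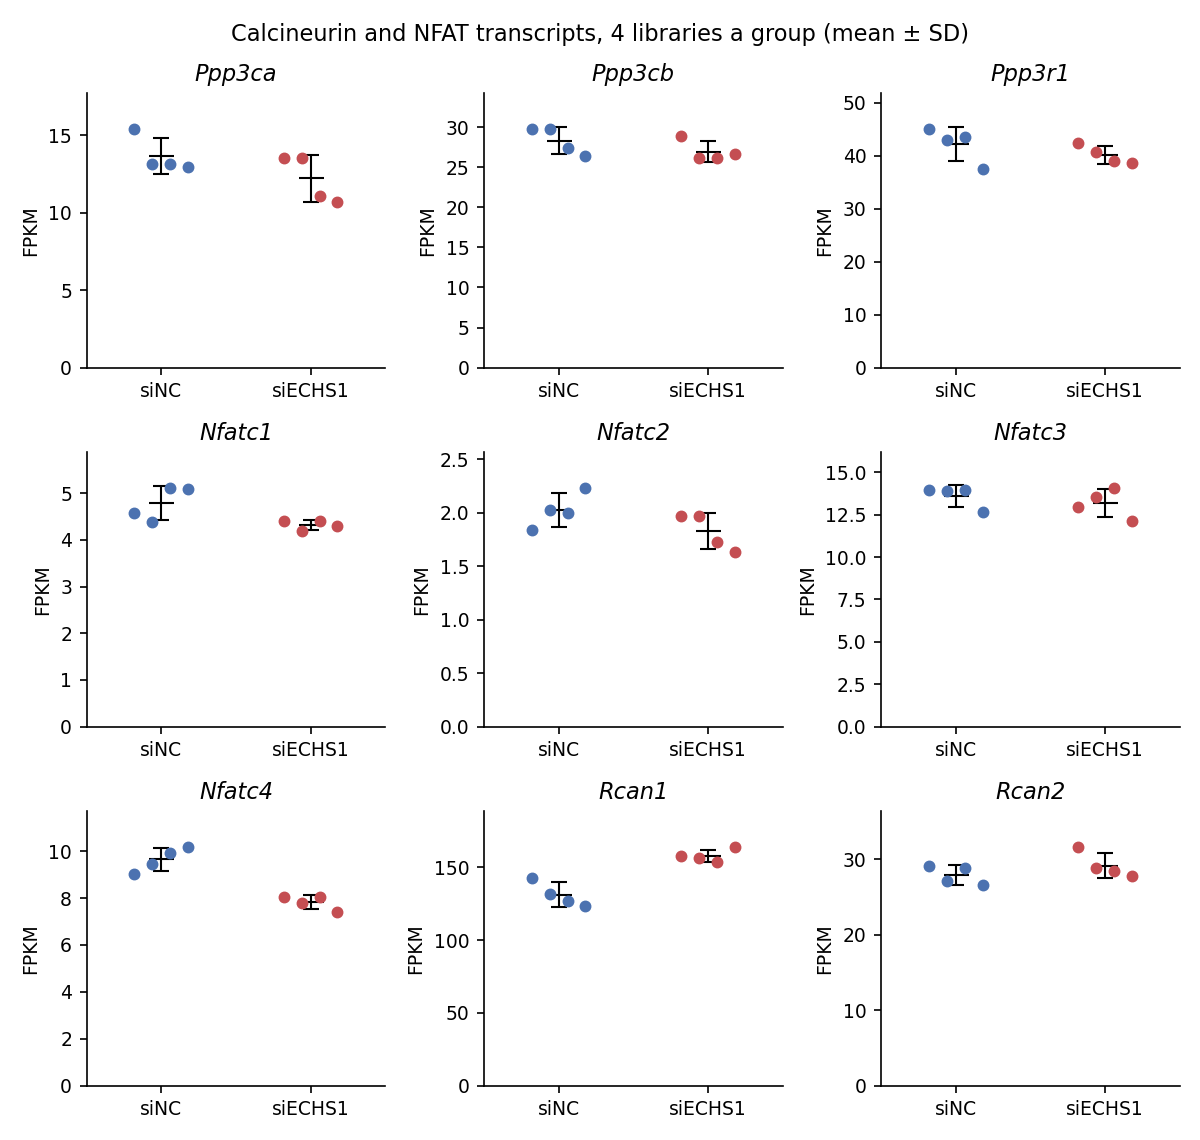
FPKM of each of the 9 transcripts in the 4 siNC (blue) and 4 siECHS1 (red) libraries, in order of replicate number; the bar is the group mean and the whiskers are 1 SD, and every vertical axis starts at 0. In Rcan1 all red points lie above all blue points, in Nfatc4 all lie below them, and in the other 7 panels the groups overlap.

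The catalytic subunits did not pass the test. Ppp3ca (ENSRNOG00000009882, chromosome 2, 241909832 to 242184854, plus strand; positions here and below are those of the authors' table, whose header names no build) encodes the A alpha subunit. Its FPKM in siNC replicates 1 to 4 was 15.4, 13.1, 13.2 and 13.0, and in siECHS1 13.5, 13.6, 11.1 and 10.7. The siECHS1 libraries formed a higher and a lower pair, and the higher pair lay among the siNC values. The log2 change was -0.15 (SE 0.08, 95% interval -0.34 to 0.04, limma adjusted p = 0.233), so a fall of up to 0.34 lay within its interval.

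Ppp3cb (ENSRNOG00000054782, chromosome 15, 4209703 to 4236895, plus strand) encodes the A beta subunit, which in the mouse is required for the full hypertrophic response of the heart. It read 29.7, 29.7, 27.4 and 26.4 FPKM in the siNC libraries and 28.8, 26.1, 26.1 and 26.6 FPKM in the siECHS1 libraries. The groups overlapped over most of their range. Its log2 change was -0.07 (SE 0.05, 95% interval -0.18 to 0.04, limma adjusted p = 0.376). Summed, the A alpha and A beta transcripts gave 42.0 ± 2.55 FPKM in siNC and 39.2 ± 2.42 in siECHS1, with overlapping libraries. The third catalytic gene, Ppp3cc, was not among the 9 and had a log2 change of 0.01 (limma adjusted p = 0.941). Within the summed FPKM of the 3 catalytic genes, Ppp3cb made up 50.3% ± 1.87 in siNC and 50.4% ± 1.97 in siECHS1.

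Ppp3r1 (ENSRNOG00000043210, chromosome 14, 100311173 to 100360879, plus strand) encodes the B alpha subunit, the calcium-binding partner that the catalytic subunit needs. Its values in siNC were 45.0, 43.0, 43.5 and 37.6 FPKM, and in siECHS1 42.5, 40.7, 38.9 and 38.6. The lowest library of all 8 was a control library, siNC replicate 4. The log2 change was -0.07 (SE 0.06, 95% interval -0.20 to 0.06, limma adjusted p = 0.420). RefSeq lists pseudogenes of Ppp3r1 and of Ppp3cb in the rat, and the treatment of reads matching several places is not given in the sources used, so the levels of these genes are uncertain to that extent.

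Among the NFAT factors Nfatc4 was lower in siECHS1. Nfatc4 (ENSRNOG00000020482, chromosome 15, 34493138 to 34504326, plus strand), a factor that in the mouse heart can drive hypertrophy when made constitutively nuclear, read 9.04, 9.44, 9.92 and 10.2 FPKM in siNC. In siECHS1 it read 8.03, 7.80, 8.04 and 7.41 FPKM. Every siECHS1 library lay below every siNC library, and the gap of the nearest libraries, 8.04 against 9.04, was larger than either group's SD. Mean levels were 9.64 ± 0.499 and 7.82 ± 0.296 FPKM, 18.9% lower in siECHS1, and the log2 change was -0.27 (SE 0.05, 95% interval -0.39 to -0.15, limma adjusted p = 0.00506). Behind the level stood 4063 siNC and 3392 siECHS1 reads.

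Nfatc3 (ENSRNOG00000054264, chromosome 19, 38039564 to 38114003, plus strand) was the most abundant NFAT transcript by FPKM, and its row overlaps that of Esrp2, so the 2 rows may share reads. It read 13.9, 13.9, 14.0 and 12.6 FPKM in the siNC libraries and 13.0, 13.5, 14.1 and 12.1 FPKM in the siECHS1 libraries. The lowest and the highest of the 8 libraries were both siECHS1 libraries. Its log2 change of -0.05 had a 95% interval of -0.17 to 0.08 (SE 0.05, limma adjusted p = 0.604).

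Nfatc1 (ENSRNOG00000017146, chromosome 18, 77203525 to 77322690, minus strand), which in the mouse is needed to form the heart valves, read 4.58, 4.39, 5.11 and 5.08 FPKM in siNC. Its siECHS1 values were 4.40, 4.18, 4.40 and 4.30 FPKM. The groups overlapped only through siNC replicate 2. The mean was 4.79 ± 0.360 and 4.32 ± 0.102, a log2 change of -0.12 (SE 0.06, 95% interval -0.26 to 0.02, limma adjusted p = 0.197).

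Nfatc2 (ENSRNOG00000012175, chromosome 3, 165245238 to 165360292, minus strand), best known from T cells, was the lowest of the 9 genes. It read 1.84, 2.02, 2.00 and 2.23 FPKM in the siNC libraries and 1.97, 1.97, 1.73 and 1.64 FPKM in the siECHS1 libraries, with overlapping groups. It rested on 522 and 486 reads over the 4 libraries of a group, and its coefficient of variation, 7.93% in siNC and 9.32% in siECHS1, was close to the 8.75% and 9.07% that counting error alone gives a library. The log2 change was -0.10 (SE 0.08, 95% interval -0.27 to 0.07, limma adjusted p = 0.415). Nfat5, a relative that lacks the calcineurin-binding region, had a log2 change of 0.01 (limma adjusted p = 0.945).

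The 4 NFAT transcripts together gave 29.4, 29.7, 31.0 and 30.1 FPKM in the siNC libraries and 27.4, 27.5, 28.2 and 25.5 FPKM in the siECHS1 libraries. These sums did not overlap, and their mean was 9.75% lower in siECHS1. Nfatc4 made up 32.1% ± 1.24 of the sum in siNC and 28.8% ± 0.461 in siECHS1, again without overlap. Nfatc3 made up 45.3% ± 2.41 and 48.5% ± 1.19, and those libraries overlapped. The shares of Nfatc1 (15.9% in each group) and Nfatc2 (6.73% in each group) had nearly equal means. The sums and shares are given as values without a test. They include Nfatc4, the only called NFAT gene, so they are not separate from its result.

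**Figure D2:**
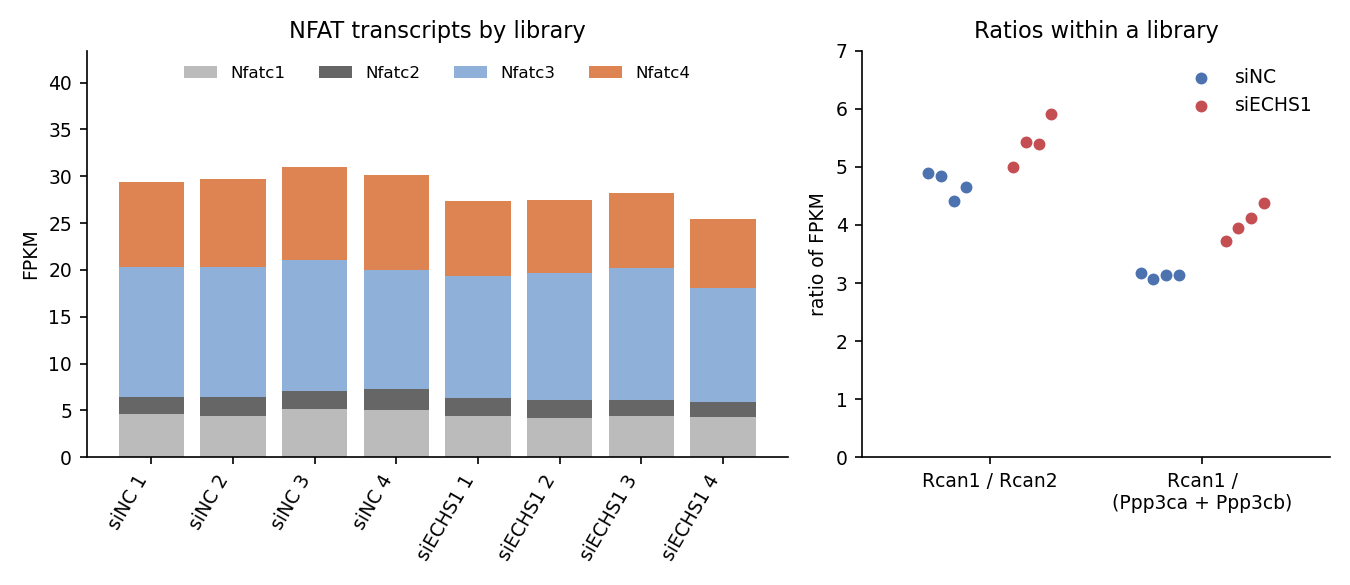
Left, stacked FPKM of Nfatc1, Nfatc2, Nfatc3 and Nfatc4 in each library, from 0; right, the ratio of Rcan1 to Rcan2 FPKM and of Rcan1 to the summed Ppp3ca and Ppp3cb FPKM in each library, siNC blue and siECHS1 red. The stacks reach 29.4 to 31.0 in siNC and 25.5 to 28.2 in siECHS1, and for both ratios the red points lie above the blue ones. The stacks include Nfatc4 and both ratios include Rcan1, so neither is separate from the results of these called genes.

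Of the calcineurin regulators Rcan1 was higher in siECHS1. Rcan1 (ENSRNOG00000001979, chromosome 11, 32539683 to 32550539, minus strand) was the most abundant of the 9 genes, above 95.6% of tested genes by mean FPKM. In siNC it read 143, 131.5, 127 and 124 FPKM, and in siECHS1 158, 156, 154 and 164. Every siECHS1 library exceeded every siNC library, and the lowest of them, replicate 3, exceeded the highest siNC library, replicate 1. Mean levels were 131 ± 8.37 and 158 ± 4.22 FPKM, a ratio of 1.20, and the log2 change was 0.27 (SE 0.05, 95% interval 0.17 to 0.37, limma adjusted p = 0.00253). The reads behind it numbered 19775 over the siNC libraries and 24462 over the siECHS1 libraries. The row spans 10857 bases and gives 1 value for the gene, so transcripts that start at different promoters of Rcan1 were not separated.

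Rcan2 (ENSRNOG00000010350, chromosome 9, 19518558 to 19749145, minus strand), the related regulator, read 29.1, 27.1, 28.8 and 26.5 FPKM in siNC. In siECHS1 it read 31.6, 28.8, 28.5 and 27.7 FPKM. Only siECHS1 replicate 1 lay above all siNC libraries. The log2 change was 0.06 (SE 0.05, 95% interval -0.05 to 0.17, limma adjusted p = 0.432). Rcan3, the remaining family member and not among the 9, had a log2 change of -0.20 (limma adjusted p = 0.194).

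Within a library the ratio of Rcan1 to Rcan2 FPKM was 4.71 ± 0.220 in siNC and 5.44 ± 0.371 in siECHS1, with siNC libraries between 4.41 and 4.90 and siECHS1 libraries between 5.003 and 5.91. Rcan1 set against the summed A alpha and A beta transcripts gave ratios of 3.07 to 3.17 in siNC and 3.73 to 4.38 in siECHS1. Neither ratio overlapped between the groups. Both ratios contain Rcan1, a called gene, so they are not separate from its result, and they are given as values without a test. The SD of the second ratio was 0.0413 in siNC, where Rcan1 ran from 124 to 143 FPKM. In siECHS1 it was 0.279, where Rcan1 ran from 154 to 164 FPKM.

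**Figure D3:**
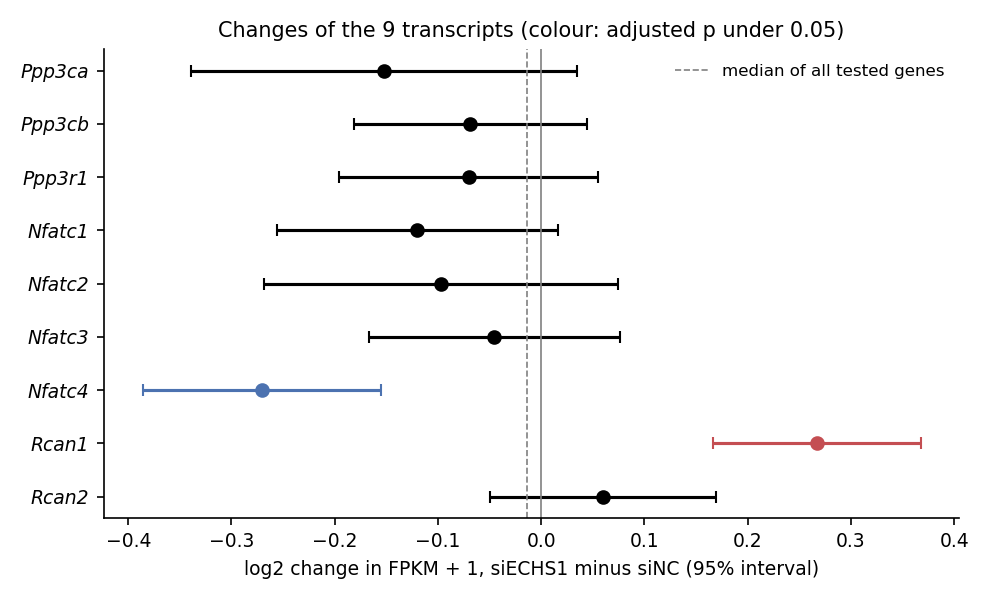
Log2 change of each transcript, siECHS1 minus siNC, on the log2(FPKM + 1) scale with its 95% interval from limma; red is higher and blue is lower at an adjusted p under 0.05, and the dashed line is the median of all tested genes. The intervals of Rcan1 (0.17 to 0.37) and Nfatc4 (-0.39 to -0.15) lie off 0, and the other 7 include it.

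By FPKM level in siNC the genes ran from Rcan1 at 131 through Ppp3r1 at 42.3, Ppp3cb at 28.3, Rcan2 at 27.9, Ppp3ca at 13.7, Nfatc3 at 13.6, Nfatc4 at 9.64 and Nfatc1 at 4.79 to Nfatc2 at 2.02. Neighbours in this order did not overlap in either group, except Ppp3cb with Rcan2 and Ppp3ca with Nfatc3, whose libraries overlapped in both groups. The Rcan1 level was 3.11 times that of Ppp3r1. These are levels per length of gene and not numbers of protein molecules.

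**Figure D4:**
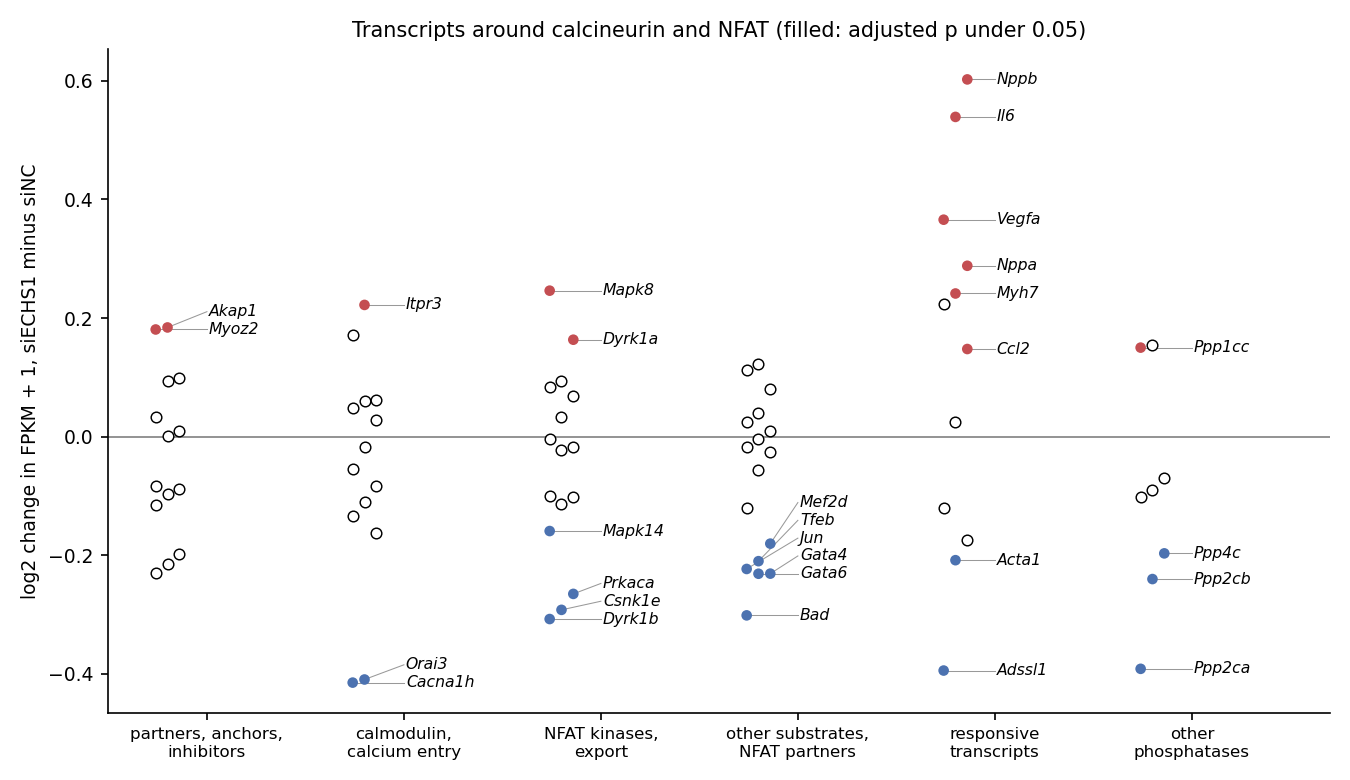
Log2 change of each tested transcript in 6 lists around calcineurin and NFAT, siECHS1 minus siNC, on the log2(FPKM + 1) scale; filled points passed an adjusted p of 0.05 (red higher, blue lower) and are named, open points did not pass. Of 12 responsive transcripts 6 are red and 2 blue (66.7% called), and of 17 other substrates and NFAT partners 6 are blue (35.3%). The share called was 14.3% of 14 partners, anchors and inhibitors and 21.4% of 14 calmodulin and calcium entry rows. It was 37.5% of 16 NFAT kinase and export genes and 50% of 8 other phosphatases. Of all tested genes 21.0% were called.

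The lists that follow were drawn up from the known pathway with earlier results of these data in view, and their counts are descriptions. Proteins that bind, anchor or inhibit calcineurin outside the 9 genes numbered 14 tested, of which 2 were called higher and 0 lower by limma (14.3%, below the 21.0% of all tested genes), with a median log2 change of -0.04. At an unadjusted p under 0.05, 3 were higher and 2 lower, and voom called 2 and 0. Akap1, an anchoring protein of the mitochondrial surface that can bind calcineurin, rose from 46.5 ± 1.26 to 52.9 ± 0.451 FPKM (adjusted p = 0.00304). Myoz2, or calsarcin-1, which tethers calcineurin at the Z-disc of the heart muscle cell, rose from 137 ± 4.38 to 155 ± 9.78 (adjusted p = 0.0193). The cyclophilin A gene Ppia and the FKBP12 gene Fkbp1a, whose proteins carry the drugs cyclosporin and tacrolimus onto calcineurin, had log2 changes of 0.03 and -0.08 and did not pass; they were chosen after their values were seen.

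Upstream, 14 rows of calmodulin and calcium entry genes were tested, of which 1 was higher and 2 lower (21.4% called, near the 21.0% of all tested genes; median log2 change -0.04). Without siECHS1 replicate 4, 2 were higher. The row of Cacna1h, a T-type calcium channel, fell from 12.3 ± 0.333 to 8.95 ± 0.380 FPKM (adjusted p = 0.000272) and overlaps that of Tpsg1. Orai3, a store-operated channel subunit, fell from 7.22 ± 0.709 to 5.18 ± 0.215 (adjusted p = 0.00242). In the other direction, the inositol trisphosphate receptor Itpr3 rose from 5.18 ± 0.189 to 6.21 ± 0.210 (adjusted p = 0.0138). Calm3 and the 2 rows named Calm2 did not pass, with log2 changes of 0.05, -0.02 and -0.08. The Calm2 row with the change of -0.02 spans 1095 bases, the same as its length, and so shows no intron. The treatment of reads matching several places is not given, so the levels of both Calm2 rows are uncertain to that extent. Calm2, Calm3 and, above, Ppp3cc, Nfat5 and Rcan3 were named outside the rule for named genes, with their values known. Trpc1 was not analysed here.

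Of 16 genes for NFAT kinases, the kinases that prime or oppose them, nuclear export and Homer proteins, 4 were lower and 2 higher (37.5% called, against 21.0% of all tested genes; median log2 change -0.02). Prkaca, the catalytic subunit of protein kinase A, fell from 92.8 ± 1.26 to 77.0 ± 1.89 FPKM (adjusted p = 0.000328). Dyrk1b, whose row overlaps that of Fbl, fell from 17.2 ± 1.06 to 13.7 ± 0.810 (adjusted p = 0.00374) and the casein kinase Csnk1e from 20.7 ± 1.38 to 16.7 ± 1.04 (adjusted p = 0.00646). The p38 kinase Mapk14 fell from 44.3 ± 1.29 to 39.6 ± 1.53 (adjusted p = 0.0163), a call lost without siNC replicate 3 (adjusted p = 0.0508, range over the alternatives 0.00916 to 0.0508). The 2 that were higher, the NFAT kinase Dyrk1a (30.9 ± 1.96 to 34.6 ± 1.38 FPKM, adjusted p = 0.0427) and the JNK1 gene Mapk8 (5.28 ± 0.704 to 6.42 ± 0.129, adjusted p = 0.0440), were named after their values were seen. Neither call held without siNC replicate 3 or 4 or without siECHS1 replicate 1, 2 or 3; Dyrk1a was also lost without siNC replicate 2, and Mapk8 without siNC replicate 1 or siECHS1 replicate 4. Without the filter on low values both were lost (0.0748 and 0.0898), and without a variance trend Dyrk1a (0.0675). Over the alternatives their adjusted p reached 0.113 and 0.110. Gsk3a and Gsk3b, chosen after their values were seen, had log2 changes of -0.10 and -0.02 and did not pass.

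Other substrates of calcineurin and partners of NFAT on DNA gave 6 lower and 0 higher of 17 tested by limma (35.3% called, against 21.0% of all tested genes; median log2 change -0.03), with the same counts at an unadjusted p under 0.05 and by voom. Bad, a pro-apoptotic BCL2-family protein that calcineurin dephosphorylates, fell from 57.3 ± 1.12 to 46.3 ± 2.52 FPKM (adjusted p = 0.000891). The AP-1 subunit Jun fell from 44.4 ± 1.21 to 37.9 ± 0.671 (adjusted p = 0.00138). The cardiac GATA factors, of which GATA4 binds NFATc4 in the mouse, fell from 32.6 ± 0.509 to 27.7 ± 0.826 for Gata6 (adjusted p = 0.00145) and from 135 ± 6.23 to 115 ± 1.17 for Gata4 (adjusted p = 0.00165). Mef2d (45.2 ± 1.18 to 39.8 ± 2.16, adjusted p = 0.0152) and Tfeb (15.9 ± 1.02 to 13.6 ± 0.561, adjusted p = 0.0186) also fell and were named after their values were seen. The call of Tfeb was lost without siECHS1 replicate 3 (adjusted p = 0.0508, range over the alternatives 0.0127 to 0.0508).

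Transcripts known to respond to calcineurin or NFAT in heart or other cells gave 6 higher and 2 lower of 12 tested (66.7% called, against 21.0% of all tested genes), with a median log2 change of 0.19 beside -0.01 over all tested genes. Nppb, the brain natriuretic peptide gene, rose from 500 ± 17.4 to 761 ± 69.8 FPKM (adjusted p = 0.000156), and Myh7, the beta myosin heavy chain, from 267 ± 16.0 to 316 ± 17.8 (adjusted p = 0.00865). The row of Myh7 overlaps that of the microRNA gene Mir208b. In the other direction, Adssl1, a muscle adenylosuccinate synthase induced by calcineurin in mouse heart, fell from 13.95 ± 1.04 to 10.4 ± 0.441 (adjusted p = 0.00106), and Acta1, the skeletal alpha actin of the fetal heart program, from 560.4 ± 12.9 to 485 ± 26.4 (adjusted p = 0.00605). The 4 others that were higher were named after their values were seen. These were Nppa, the atrial natriuretic peptide gene (2931 ± 173 to 3582 ± 274, adjusted p = 0.00898), Vegfa (37.3 ± 5.41 to 48.1 ± 0.848, adjusted p = 0.00992), Il6 (2.22 ± 0.553 to 3.64 ± 0.449, adjusted p = 0.0116) and Ccl2 (191 ± 9.59 to 212 ± 5.13, adjusted p = 0.0239). The call of Ccl2 was lost without siNC replicate 1, 3 or 4 and without siECHS1 replicate 1 or 2, with adjusted p between 0.05066 and 0.0749, and also without a variance trend (0.0546). All of these genes answer to other pathways too.

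As a comparison for the calcineurin subunits, 8 catalytic subunits of other serine/threonine phosphatases were tested, of which 3 were lower and 1 higher (50% called, against 21.0% of all tested genes; median log2 change -0.10). The catalytic subunits of protein phosphatase 2A fell, Ppp2cb from 99.2 ± 4.36 to 83.9 ± 3.38 FPKM (adjusted p = 0.00299) and Ppp2ca from 53.3 ± 7.77 to 40.1 ± 2.12 (adjusted p = 0.0126). Ppp4c fell from 51.9 ± 2.57 to 45.2 ± 2.59 (adjusted p = 0.0191), a call lost without siNC replicate 2 (adjusted p = 0.0512, range over the alternatives 0.0126 to 0.0512). Ppp1cc, a catalytic subunit of protein phosphatase 1, rose from 106 ± 2.26 to 118 ± 4.07 (adjusted p = 0.0120).

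The libraries hold RNA of whole cultures, so for every gene above fewer cells of a type and less RNA per cell cannot be told apart. Cardiomyocyte markers were high in all libraries, with a summed level of 6254 to 6391 FPKM over 7 genes in siNC and 6304 to 7029 in siECHS1. The largest part of that sum was Actc1, the 1 that was higher (mean 3273 FPKM in siNC and 3730 in siECHS1). The 3 that were lower were Myl7 (73.6 and 45.3), Myh6 (948 and 741) and Tnni3 (181 and 150). Tnnt2, Ryr2 and Pln did not pass, so 57.1% of the 7 were called, against 21.0% of all tested genes. The summed level of 6 fibroblast markers was 2288 to 2463 FPKM in siNC and 2997 to 3284 in siECHS1. Of these 6, 3 were higher and 1 lower (66.7% called, against 21.0% of all tested genes). The largest part of the fibroblast sum was Col1a1 (2087 FPKM in siNC and 2768 in siECHS1). Dcn (85.0 and 137) and Postn (129 and 167) were also higher, and Lum was lower (26.1 and 22.7). Tcf21 (21.3 and 21.1) and Pdgfra (15.2 and 14.95) did not pass. Smooth muscle and pericyte markers summed to 4298 to 4394 and 4104 to 4471 FPKM over 6 genes. Of these, 1 was higher and 1 lower (33.3% called, against 21.0% of all tested genes). Endothelial markers summed to 27.5 to 30.1 and 29.0 to 30.3 FPKM over 5 genes, with 0 called by limma, by voom or at an unadjusted p under 0.05. Macrophage and leukocyte markers summed to 20.7 to 22.6 and 19.99 to 23.9 FPKM over 6 genes. Of the 3 tested, 1 was higher and 1 lower (66.7% called, against 21.0% of all tested genes). T and B cell markers, of interest beside Nfatc2, summed to 0.860 to 1.31 and 1.05 to 1.79 FPKM over 5 genes, and neural markers to 7.98 to 8.84 and 6.85 to 8.34 over 6, with 0 of the 1 tested called by the same 3 measures. No marker was at 0 in all libraries. The part of other cell types in the changes of Rcan1 and Nfatc4 was not tested.

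Among tested genes, rows with provisional names, such as those starting with LOC, were left out of a search for like patterns. Values of log2(FPKM + 1) were centred on each gene's mean. The remaining genes most like each called gene were found by the root mean square difference over the 8 libraries. For Rcan1 these were Dnajb5 (0.0266), Surf4 (0.0349) and Matn2 (0.0351), with log2 changes of 0.24, 0.27 and 0.30. For Nfatc4 they were Sema4c (0.0163), Gpr146 (0.0232) and Agbl5 (0.0296), with log2 changes of -0.27, -0.26 and -0.25. They were chosen for this likeness, which includes the group difference, and no test was made of it.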

How the data were processed

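RNA was sequenced from 4 siNC and 4 siECHS1 libraries of neonatal rat cardiomyocytes, made from 1 µg of total RNA with the TruSeq RNA kit, per the labels' protocols. The authors deposited FPKM values per Ensembl gene. The submitters' processing notes name Bowtie 0.12.2 and the builds Rnor_6.0 and mm8 but assign them no role; no counting tool or strand setting is given in the sources used, so overlapping rows may share reads.

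The 12616 of 21017 genes whose mean reached 1 FPKM were compared on log2(FPKM + 1) with limma 3.58.1 (R 4.3.3; variance trend on; two-sided), Benjamini-Hochberg adjusted over all tested genes, at a threshold of 0.05. Adjusted p values in the text are from this fit, except that of Echs1, which is from the fit without the filter, and those given for alternatives. Fold changes on this scale understate those of low genes. Whole reads were recovered from the steps of low FPKM values: 100% of values came out whole within 0.01 of a read, and totals were 16953309 to 18237111, with 99.9% in listed genes. The reads give the depth and the counting error, which covers counting only, and entered voom (limma) as an alternative added after the data were seen, which called 2948 genes. On simulated reads the recovery was exact for 99.6% of 3872 genes. The limma script was also run on simulated reads, whose scatter was set beforehand and need not match that of these libraries. Library pairs within a group differed by more than counting noise (chi-square per degree of freedom 2.56 to 6.02), so none was merged.

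The 9 genes and the lists were chosen with earlier results of these data known. From each list the text names at most 4 genes past the threshold, by the smallest p. It also names the 3 tested genes most like each called member, among rows without a provisional name. Genes named outside this rule are marked. Withheld items of the calcium entry list are not reported here. Alternatives were the pseudocount, the filter, the scaling, the variance trend, the replicate block, each library left out, and voom. Promoters came from RefSeq (GRCr8), with 6 of 9 genes matched by symbol. Python 3.11.15, pandas 2.3.3 and matplotlib 3.10.9 were used.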

Additional observations from a re-analysis of the deposited data

Results flagged for a closer look

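In groups of 4 libraries, a library was singled out where its gap to the nearest of the others, divided by the range of the group, exceeded Dixon's 95% critical value. This concerned 5 of 80 groups in 40 genes, and chance gives about 1 in 20. Ppp3ca in siNC replicate 1 was 15.4 FPKM while the other siNC libraries lay between 13.0 and 13.2. Nfatc3 in siNC replicate 4 was 12.6 FPKM, below the others at 13.9 to 14.0. Around the 9 genes, Itpr3 was 4.90 FPKM in siNC replicate 1 (others 5.26 to 5.31), Gata4 was 144 in siNC replicate 4 (131 to 132) and Ppp4c was 41.3 in siECHS1 replicate 2 (46.1 to 46.8). None of the groups of Rcan1 or Nfatc4 was singled out.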

How the results depend on the processing

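Rcan1 stayed past the threshold under all 17 alternatives, with log2 changes of 0.24 to 0.31 and adjusted p of 0.000400 to 0.0102, and so did Nfatc4, at -0.30 to -0.25 and 0.000670 to 0.0183. The other 7 genes kept their sign and passed in none of their 16 or 17 alternatives, but their small changes moved, several by over 1.5 times: Ppp3ca ran from -0.20 to -0.10, Ppp3cb from -0.10 to -0.05, Ppp3r1 from -0.12 to -0.04, Nfatc1 from -0.15 to -0.09, Nfatc2 from -0.15 to -0.06, Nfatc3 from -0.08 to -0.01 and Rcan2 from 0.02 to 0.08. Nfatc1 and Nfatc2 have no value when genes under 5 FPKM are left out. The samples share replicate numbers, and same-numbered libraries deviated together with correlations of 0.173, -0.0507, 0.00719 and 0.0750. Such few values cannot settle whether the numbers pair the libraries. The libraries siNC replicate 1 and siECHS1 replicate 1 were each other's best match, and siECHS1 replicate 4 correlated best with siNC replicate 4. By contrast, siNC replicates 2, 3 and 4 and siECHS1 replicates 2 and 3 correlated best with another number. With the replicate block 1283 genes were called higher and 1669 lower, the partners list had 1 lower gene in place of 0, other substrates 1 higher in place of 0, other phosphatases 2 higher in place of 1, and the call of Mapk8 was lost (adjusted p = 0.0603). Without the filter on low values the kinase list had 0 higher genes in place of 2, and without a variance trend 1. Leaving out each library gave 792 to 1182 genes higher and 1102 to 1553 lower, 0 to 2 lower genes in the partners list 0 to 1 higher in the kinase list and 1 to 2 higher in calcium entry. Of the single genes around the 9, the calls lost were those of Mapk14, Ppp4c, Dyrk1a, Mapk8, Tfeb and Ccl2. Median-of-ratios scaling gave 1288 higher and 1243 lower. For changes of count the cause was not tested. The lowest gene, Nfatc2, is limited by depth.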
